A study of Rattus norvegicus and Bos taurus with 6 samples.

Results

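The nuclei described here came from white fat of the flank of the cow and carried RNA of CD163, MRC1, F13A1 and LYVE1, genes known from tissue-resident macrophages. They were chosen by their own counts. A nucleus was taken when it held at most 15000 UMIs (unique molecular identifiers, each counting 1 captured transcript), when its summed UMIs of MRC1, CD163, F13A1, LYVE1 and CR2 (sum A) were at least 4, and when that sum exceeded both the sum of OLR1, CLEC4D, FCGR1A and SDS (sum C) and the sum of 8 genes of other lineages, PTPRB, PECAM1, PDGFRA, DCN, FBN1, NOTCH3, MYH11 and SKAP1 (sum B). This gate passed 214 nuclei. They made up 10.4% (95% exact binomial interval 9.09 to 11.8) of the 2064 cow nuclei with at most 15000 UMIs, and 9.32% of all 2297 called cow nuclei, in a series of 19424 nuclei from 6 libraries.

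The study tested how to isolate nuclei from white fat for single-nucleus RNA sequencing in rats and cattle, with rat brown depots for reference. The cow library came from snap-frozen subcutaneous white adipose tissue (WAT) of the flank of female Holstein dairy cows, which were multiparous, early in lactation, clinically healthy and kept in tie-stalls, and it was made with the Parse Evercode WT v3 kit. It is the only cow library, and the number of animals behind it is not given in the sources used here, so no result has a replicate and no test between conditions was possible. All intervals below are 95% intervals for counting error only. The rat libraries, used here only for a side-by-side reading at the end, came from male SS/HsdMcwiCrl rats.

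Macrophages of healthy fat sit among adipocytes and along vessels, take up dying cells, lipid and iron, and depend on signalling through the CSF1 receptor. Resident macrophages of many tissues carry scavenger receptors such as CD163, which binds haemoglobin bound to haptoglobin, and MRC1, the mannose receptor. Those that also carry LYVE1, a hyaluronan receptor, are known for lying close to vessels, while macrophages of lipid-loaded fat are known for TREM2, CD9, LPL and GPNMB.

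The 214 macrophage nuclei held 1101247 UMIs in all, of 16827260 in the library. Their median was 4095.5 UMIs (3515 to 4833) and 2059.5 genes per nucleus, against 3007.5 UMIs (2876 to 3143) and 1509.5 genes in the 1850 other nuclei with at most 15000 UMIs. The median mitochondrial share was 0% in the macrophage nuclei and 0.0102% in the others. No cell barcode was shared with another library of the series, which is not read as a measure of mixing between libraries. The nuclei were sequenced as 2 sublibraries, which are technical splits of 1 pool. Sublibrary 1 held 109 macrophage nuclei of 1033 (10.6%, 8.74 to 12.6) and sublibrary 2 held 105 of 1031 (10.2%, 8.41 to 12.2), so the share was alike in both within counting error.

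The gate genes are described first, without being read as results, because they chose the nuclei. Sum A was 4 to 135 UMIs per macrophage nucleus, with a median of 13 and quartiles of 7 and 24. CD163 was found in 204 of the 214 nuclei (95.3%), with 1774 UMIs. F13A1, the A subunit of coagulation factor XIII, was found in 164 nuclei (76.6%), MRC1 in 134 (62.6%) and CR2, complement receptor 2, in 129 (60.3%). LYVE1 was found in only 39 (18.2%), with 95 UMIs. Most nuclei thus rested on several genes: 25 nuclei carried all 5 genes of sum A, 57 carried 4, 63 carried 3, 59 carried 2 and 10 carried only 1, which was CD163 in 6, MRC1 in 3 and F13A1 in 1. Sum B was 0 in 49 nuclei and had a median of 1 UMI, and sum C was 0 in 162 nuclei.

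**Figure D1:**
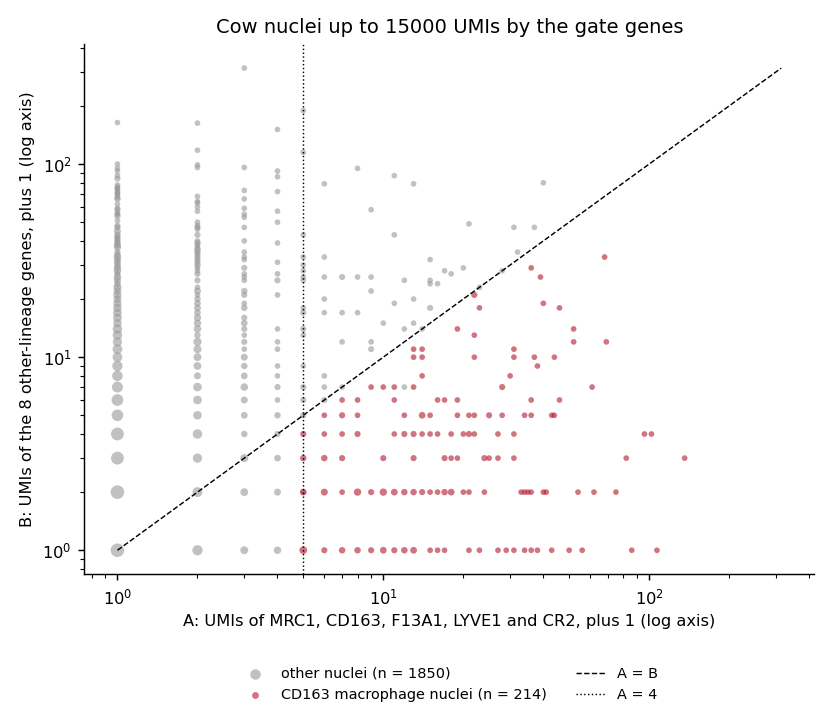
Each point is a combination of sum A (x axis, UMIs plus 1, log axis) and sum B (y axis, UMIs plus 1, log axis) among cow nuclei with at most 15000 UMIs, with a point area that grows with the number of nuclei. The 214 macrophage nuclei (red) lie right of the dotted line at A = 4 and below the dashed line at A = B, with 4 to 135 UMIs of sum A and at most 32 of sum B, and the 1850 other nuclei are gray.

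At the edge of the gate, the 19 macrophage nuclei with exactly 4 UMIs of sum A had a median of 1983 UMIs, and the 16 nuclei with 3 that passed the other conditions had 2170.5. CD163 stood at 655 CPM (UMIs of the gene summed over the nuclei of a group, per 1000000 UMIs of that group) in the former and at 447 CPM in the latter, and among genes that the gate did not use CSF1R stood at 789.7 and 335 CPM and VSIG4 at 847 and 391 CPM. Not every macrophage gene fell across this edge, with ITGAM at 597 CPM (406 to 847) and 1062 CPM (804 to 1375) and MERTK at 443 and 577 CPM. PTPRC was level within counting error, at 616 and 577 CPM. Markers of other cell types outside the gate also differed across the edge. COL3A1, a stromal marker, stood at 982 CPM (731 to 1291) and 391 CPM (242 to 598). PLIN1, an adipocyte marker, stood at 173 and 18.6 CPM, on 9 UMIs and 1 UMI. A further 70 nuclei had sum A of at least 4 but a sum B not below it. Those nuclei were deeper, with a median of 8208.5 UMIs, and CSF1R reached 208 CPM in them. Whether these barcodes hold more than 1 nucleus was not tested.

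CPM values are not corrected for gene length, so a gene is compared between groups of nuclei and not with another gene. CD163 reached 1611 CPM in the macrophage nuclei and 55.9 CPM in the other nuclei, with 1497 CPM (1398 to 1601) in sublibrary 1 and 1733 CPM (1623 to 1849) in sublibrary 2. F13A1 reached 1019.8 CPM, at 980.2 and 1062 CPM in the sublibraries, and MRC1 506 CPM, at 529 and 481 CPM. The sublibraries differed beyond counting error in CD163, and also in CR2, which reached 611 CPM, at 755 CPM (686 to 830.3) and 457 CPM (401 to 518). Among 4402 genes with at least 50 UMIs in the macrophage nuclei, 78 were at least 2-fold higher and 28 at least 2-fold lower in sublibrary 1 than in sublibrary 2. Split by barcoding well, another technical split, 96 were at least 2-fold higher and 63 at least 2-fold lower in well A11 than in well A12.

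With every nucleus thinned to 1000 UMIs, so that depth was equal, CSF1R, which was not in the gate, was found in 62.6% of the macrophage nuclei (55.8 to 69.1) and in 1.47% of endothelial-type nuclei (0.479 to 3.40), whose unthinned median was 4922 UMIs, and VSIG4 in 46.7% (39.9 to 53.6) and 3.53% (1.84 to 6.08). CD163 was found in 75.2% and 1.47%, a contrast set by the gate and given as a description. LYVE1 fell to 7.48% of the macrophage nuclei at this depth, so a nucleus without a LYVE1 UMI is not shown to lack its RNA.

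The name macrophage was set beside 22 general macrophage markers outside the gate, a list chosen with earlier results of these data known. Of these, 21 are in the gene table and 18 had enough UMIs to be considered, which means at least 10 expected in the macrophage nuclei at the pooled level of both groups. All 18 were at least 2-fold higher in the macrophage nuclei than in the other nuclei, with a median ratio of 6.23. Over all 10896 genes considered, 1031 (9.46%) were at least 2-fold higher and 1242 (11.4%) at least 2-fold lower, with a median ratio of 1.07. CSF1R, the receptor for CSF1, stood at 959 CPM and 842 CPM in the sublibraries and at 53.9 CPM in the other nuclei, a ratio of 16.7 (14.9 to 18.8), and was found in 86.0% of the macrophage nuclei. ITGAM, an integrin chain of complement receptor 3, reached 929 CPM against 91.9 CPM. PTPRC, the leukocyte antigen CD45, reached 506 CPM against 107 CPM, and in the 19 lymphocyte-type nuclei it stood higher, at 1573 CPM.

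**Figure D2:**
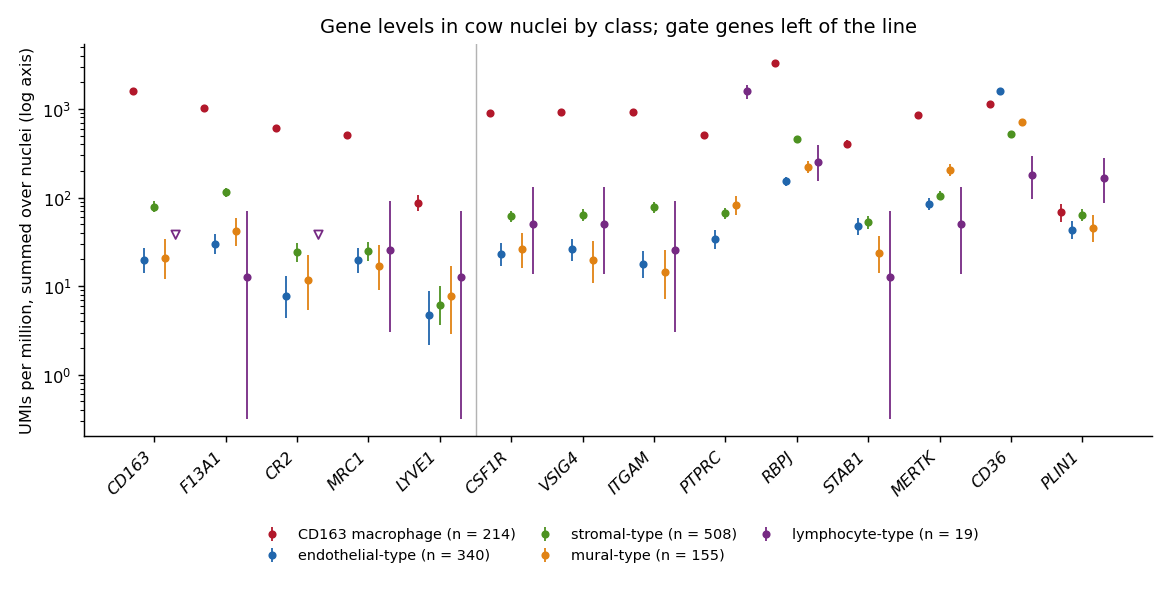
CPM of 14 genes (log axis) in 5 classes of cow nuclei defined by their gate genes, with 95% Poisson intervals. Open triangles mark genes with no UMI, drawn at the level of 3 counts. CSF1R, VSIG4, ITGAM, RBPJ, STAB1 and MERTK were higher in the macrophage nuclei than in the other 4 classes plotted, PTPRC was higher in lymphocyte-type nuclei, and CD36 was higher in endothelial-type nuclei. The class of 3 OLR1-type nuclei described near the end is not plotted, and ITGAM and MERTK stood higher there, at 1628 and 1033 CPM.

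The ranking of genes outside the gate by their ratio over the other nuclei took genes with at least 20 UMIs in the macrophage nuclei and a UMI in at least 10% of them, so it admits genes by the group in which they are high. Of its 25 leading genes BRB, SCAMP5 and AOC1, with 8, 19 and 25 UMIs in the other nuclei, had fewer than 10 expected UMIs and are not among the genes considered. Phospholipid transfer protein, PLTP, had 94.4 CPM against 3.73 CPM, a ratio of 25.3 (16.6 to 39.6), although its 104 UMIs came from 32 nuclei and 52.9% of them from 5. VSIG4, a complement receptor of the immunoglobulin superfamily, had 929 CPM in sublibrary 1, 912 CPM in sublibrary 2 and 62.7 CPM in the other nuclei, a ratio of 14.7 (13.2 to 16.4). IL10RA, the ligand-binding chain of the interleukin-10 receptor, had a ratio of 16.5 (12.1 to 22.7). CD86, a costimulatory ligand of T cells, had a ratio of 12.7, C5AR1, the receptor for complement C5a, one of 12.0, and CLEC12A, an inhibitory lectin receptor, one of 12.6.

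The same ranking held SLC11A1, which moves divalent metals out of the phagosome and reached 269 CPM against 19.3 CPM, a ratio of 13.9 (11.4 to 17.1). KCNK13, a potassium channel, reached 405 CPM against 31.9 CPM, a ratio of 12.7 (10.8 to 14.9), and was found in 57.5% of the macrophage nuclei. SLC8A3, a sodium-calcium exchanger, had a ratio of 10.2 (8.18 to 12.8) but was found in 46 nuclei only. Of the enzymes, guanine deaminase, GDA, was found in 91.1% of the macrophage nuclei and had 1792 CPM against 152 CPM, a ratio of 11.8 (10.9 to 12.6). Prolidase, PEPD, which cleaves dipeptides that end in proline, was found in 85.5% and had 908 CPM against 84.2 CPM. BRB, a cattle ribonuclease of the RNase A family, stood first in the ranking at 29.98 (13.6 to 74.96), on 34 UMIs against 8, and PLTP had the largest ratio among its considered genes. In the 3 OLR1-type nuclei, described near the end, SLC11A1 reached 517 CPM (316 to 798), VSIG4 749 CPM (502 to 1076) and IL10RA and CLEC12A 155 CPM each (56.9 to 337).

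Genes without a symbol took 23.4% of the UMIs of the macrophage nuclei and 28.8% of those of the other nuclei. ENSBTAG00000066082 alone had 110295 UMIs, at 100155 CPM against 143761 CPM in the other nuclei, a ratio of 0.697. The genes with a symbol among the 10 with most UMIs were RBPJ, LRMDA, CELF2 and ZEB2, with ratios of 8.97, 3.05, 2.74 and 2.96. With the 10 genes of most UMIs in the library left out of the totals, the split of all genes considered moved to 876 higher and 1445 lower.

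**Figure D3:**
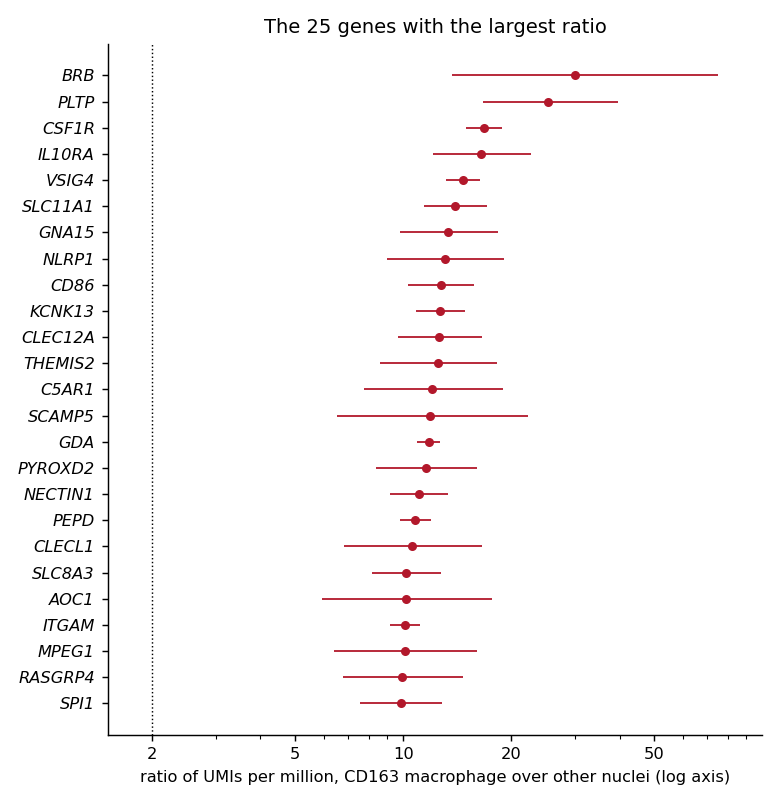
Ratio of CPM in the macrophage nuclei over the other nuclei (log axis, with 95% interval) for the 25 named genes with the largest ratio outside the gate, from SPI1 at 9.82 to BRB at 29.98. BRB, SCAMP5 and AOC1 had fewer than 10 expected UMIs and are not among the genes considered. The dotted line marks a ratio of 2.

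The resident macrophage list holds 25 genes, of which 21 are in the table by symbol and 13 were considered. Of these, 11 were at least 2-fold higher and 1 at least 2-fold lower, with a median ratio of 6.10. The list was chosen with earlier results of these data known, so its counts are a description. MERTK, a receptor for the uptake of dying cells, reached 861 CPM, with 833 and 891 CPM in the sublibraries, against 137 CPM in the other nuclei, a ratio of 6.27 (5.74 to 6.85). STAB1, a scavenger receptor, reached 404 CPM in each sublibrary against 44.3 CPM, a ratio of 9.12 (7.91 to 10.5). RBPJ, the DNA-binding partner of Notch, reached 3290.3 and 3289.5 CPM in the sublibraries against 367 CPM. The level of each of these genes was alike in the sublibraries within counting error.

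The transcription factor MAF of the same list had 111 CPM, with a ratio of 6.42. GAS6, a ligand of MERTK, was lower at 57.2 CPM against 125 CPM. Several textbook markers of resident cells were sparse, with 50 UMIs of C1QB, 36 of C1QA, 30 of SIGLEC1 and 17 of TIMD4 over the 214 nuclei. FOLR2, CD209, PF4 and C1QC are not listed by these symbols and were not analysed here.

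The counts of each list below stand beside the 9.46% of all genes considered that were higher and the 11.4% that were lower. Of 12 scavenger and endocytic receptors considered, 6 were at least 2-fold higher and none lower, with a median ratio of 1.92. MSR1, a scavenger receptor for modified lipoproteins, had 488 CPM against 57.3 CPM, and DAB2, an endocytic adaptor, had 351 CPM against 80.8 CPM. CD36, a fatty acid receptor, was not set apart, at 1125 CPM against 960.0 CPM, and stood higher in the 340 endothelial-type nuclei, at 1605 CPM. Of 21 lysosome genes considered, 16 were at least 2-fold higher and none lower, with a median ratio of 2.89. They included the proteases LGMN (ratio 7.17), CTSS (6.42) and CTSB (5.04), the acid lipase LIPA (5.21) and the progranulin gene GRN (5.6).

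Markers of lipid-associated macrophages were mixed. Of 12 considered, 7 were at least 2-fold higher and 2 at least 2-fold lower. GPNMB, a glycoprotein of lysosome-rich macrophages, had 239 and 246 CPM in the sublibraries against 34.6 CPM in the other nuclei, a ratio of 7.0 (5.89 to 8.32), and LGALS3, a galectin, had a ratio of 3.95. CD9 had 214 CPM against 99.3 CPM. SPP1, osteopontin, had 75.4 CPM against 27.3 CPM, a ratio of 2.76 that became 1.19 with the 10 nuclei that carried only 1 gene of sum A counted among the others and 0.932 with the gate set on nuclei thinned to 1000 UMIs. TREM2, the receptor that defines such cells in many studies, had 3 UMIs in all. APOE, a lipoprotein component, was lower at 14.5 CPM against 52.0 CPM, and the highest level among the classes was 122 CPM in the 155 mural-type nuclei.

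**Figure D4:**
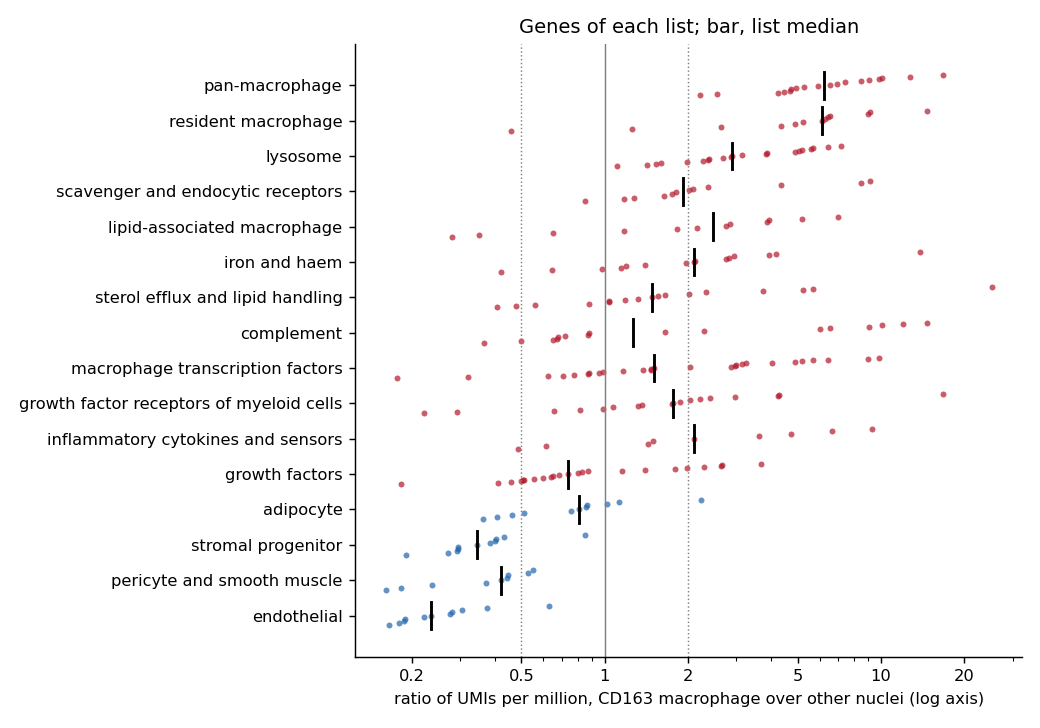
Ratio of CPM in the macrophage nuclei over the other nuclei (log axis) for each considered gene of 16 lists, with a black bar at the median of the list. Lists of macrophage functions are red and lists of other cell types are blue, dotted lines mark ratios of 0.5 and 2, and list medians run from 0.235 for endothelial markers to 6.23 for general macrophage markers.

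Genes of iron and sterol handling followed. Of 15 iron and haem genes considered, 8 were at least 2-fold higher and 1 lower, with a median ratio of 2.12. Ferroportin, SLC40A1, which exports iron, had 131 CPM against 33.3 CPM, a ratio of 3.92 (3.18 to 4.83), and ACO1, a cytosolic aconitase that senses iron, had 249 CPM against 90.8 CPM. Of 17 genes of sterol efflux and lipid handling, 6 were at least 2-fold higher and 2 lower, the latter close to the 11.4% of all genes, with a median ratio of 1.49. ABCA1, the cholesterol efflux pump, had 803 CPM against 215 CPM, a ratio of 3.74 (3.44 to 4.06), CYP27A1, a sterol hydroxylase, had a ratio of 5.21, and SOAT1, which esterifies cholesterol, had 5.67. Its fellow efflux pump ABCG1 was lower, at 16.3 CPM against 39.9 CPM.

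Several inflammatory cytokines were at or near 0 at this depth. TNF had no UMI, IL6, CXCL8 and IL23A had 1 each and IL1B had 2, and the limit for a count of 0 is 2.72 CPM. IL18, a cytokine released through inflammasomes, had 37 UMIs in 26 nuclei, at 33.6 CPM against 54.8 CPM in the other nuclei. Of the 9 inflammatory genes with enough UMIs to consider, 5 were at least 2-fold higher and 1 lower. The 5 were the Toll-like receptors TLR1, TLR4 and TLR8, NLRP3, the core of an inflammasome (82.6 CPM against 8.88 CPM), and the transcription factor IRF5 (135 CPM against 20.3 CPM). IL10 had 9 UMIs and ARG1 had 2, while 4 of 13 anti-inflammatory genes considered were at least 2-fold higher and none lower. Of the MHC class II list 3 genes are in the table by symbol, and all 3 were at least 2-fold higher. CIITA, the master regulator of MHC class II, had 127 CPM against 35.1 CPM, and CD74, the invariant chain, had 127 CPM against 60.0 CPM and 122 CPM in endothelial-type nuclei.

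Of 16 complement genes considered, 7 were at least 2-fold higher, and 2 were lower, which is close to the share of all genes. Beside ITGAM, VSIG4 and C5AR1 these included CD55, a regulator that speeds the decay of complement convertases, at 157 CPM against 17.4 CPM. Of 4 chemokine genes considered, CXCL16 was at least 2-fold higher and 3 were lower, with CXCL12 at 48.1 CPM against 253 CPM. CCR2, the receptor of recruited monocytes, had no UMI in the macrophage nuclei, and its 2.06 CPM in the other nuclei lies below the 2.72 CPM that a count of 0 allows, so a difference was not detectable at this depth.

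Of 23 growth factors considered, 4 were at least 2-fold higher and 4 lower, beside 9.46% and 11.4% of all genes considered, and the median ratio was 0.736. SEMA3A, a repulsive guidance ligand, had 365 CPM against 99.4 CPM, a ratio of 3.67 (3.25 to 4.15). IGF1 had 78.1 CPM against 29.5 CPM. On the receptor side, 7 of 18 were at least 2-fold higher and 2 lower, and NRP2, a receptor for class 3 semaphorins other than SEMA3A, had 775 CPM against 181 CPM. NRP1, which does bind SEMA3A, had 911 CPM in the macrophage nuclei and 854 CPM in endothelial-type nuclei.

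Among macrophage transcription factors, 13 of 27 were at least 2-fold higher and 2 lower. SPI1, the myeloid factor PU.1, had 129 CPM against 13.1 CPM, a ratio of 9.82 (7.56 to 12.8). RUNX1 had 736 CPM against 182 CPM, IRF8 had 49.9 CPM against 9.66 CPM, and MITF, a regulator of lysosome genes, had 941 CPM against 328 CPM. TCF4, known from plasmacytoid dendritic cells, was lower at 262 CPM against 815 CPM.

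Among the lists of macrophage functions and of stress genes, 3 were not yet given. Phagocytosis and efferocytosis had 3 of 18 genes higher and 2 lower, and eicosanoid and purine genes 4 of 8 higher and none lower. Immediate early and stress genes had 1 of 12 higher and none lower. The 2 of 18 that were lower and the 1 of 12 that was higher are close to the 11.4% and 9.46% of all genes considered. FOS, an immediate early factor, had 115 CPM against 73.0 CPM, and ATF3 was the stress factor that was at least 2-fold higher, at 92.6 CPM against 29.4 CPM.

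Proliferation genes were concentrated in few nuclei. Of 12 considered, 7 were at least 2-fold higher than in the other nuclei and none lower. The 16 genes of the list summed to 639 UMIs in the macrophage nuclei, and 7 nuclei with at least 10 such UMIs (3.27%, 1.33 to 6.62) held 366 of them (57.3%). In the other nuclei 24 of 1850 (1.297%, 0.833 to 1.92) reached 10 UMIs. No UMI of the list was found in 78 macrophage nuclei and in 1051 other nuclei, and depth was not equal in this count.

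Markers of other cell types were read for the whole lists. The endothelial list summed to 858 CPM, led in UMIs by VWF, against 7909 CPM in endothelial-type nuclei, and 10 of 11 genes were at least 2-fold lower than in the other nuclei. The stromal progenitor list summed to 1519 CPM, led by COL3A1 with 511 CPM, against 8091 CPM in stromal-type nuclei, and 10 of its 11 genes were lower. The pericyte and smooth muscle list, led by ABCC9, summed to 317 CPM against 3123 CPM in mural-type nuclei, and 7 of its 9 genes were lower. These levels were lower than in the nuclei of each lineage but not 0. Their part in the values above was not tested.

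The adipocyte list summed to 1719 CPM, led in UMIs by GPAM with 474 CPM, against 2628 CPM in the other nuclei, with 1 of 11 genes at least 2-fold higher and 3 lower. A single nucleus of 13596 UMIs among those that passed the gate decided several of these levels. Its sum A was 8 UMIs of CD163 and 1 of F13A1. This nucleus had no UMI of MRC1 or VSIG4, so the name macrophage is not shown for it. It held 586 of the 868 UMIs of KCNB2, a potassium channel, 166 of 522 of GPAM, 85 of 254 of DGAT2, 54 of 105 of LIPE and 25 of 75 of PLIN1, lipid droplet and triglyceride genes, with 9 UMIs of sum A, 1 of CSF1R and none of PTPRC. Without it the adipocyte list summed to 1390.2 CPM and KCNB2 fell from 788 to 259 CPM. LIPE fell from 95.3 to 46.9 CPM, against 111 CPM in the other nuclei. It thus passed the 2-fold limit for lower genes only without this nucleus. A different nucleus held 67 of the 114 UMIs of CSF1, and without that one CSF1 stood at 43.0 CPM.

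CR2 is also known from B lymphocytes and LYVE1 from lymphatic endothelium, so those markers were read too. CD79A and CD79B had no UMI in the macrophage nuclei and MS4A1 had 2, whereas BLNK, a signalling adaptor, had 140 CPM against 26.1 CPM. BANK1, a scaffold of B-cell receptor signalling, had 99 UMIs in 54 macrophage nuclei, at 89.9 CPM against 44.5 CPM, and PAX5, a B-lineage factor, had 21 UMIs in 21 nuclei, at 19.1 CPM against 18.0 CPM. The whole B list, led in UMIs by BLNK, had 2 of 3 considered genes at least 2-fold higher, and it summed to 285 CPM against 112 CPM in the other nuclei. PROX1, the factor that defines lymphatic endothelium, had 8.17 CPM against 12.1 CPM in the other nuclei, CCL21 had no UMI, and the lymphatic list, led by RELN, summed to 109.9 CPM against 142 CPM with 1 of 6 genes lower. CD79A, CD79B, MS4A1 and CCL21 were thus at or near 0, and BLNK, BANK1 and PAX5 were not. Their part in the values was not tested.

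Dendritic, T and NK, neutrophil and monocyte, and mast cell lists each summed higher in the macrophage nuclei than in the other nuclei. CADM1, an adhesion molecule of cross-presenting dendritic cells, had 1264 CPM against 213 CPM, a ratio of 5.93 (5.51 to 6.37), and was found in 70.1% of the macrophage nuclei, while CLEC9A and CD207 had no UMI, XCR1 had 3 and ZBTB46 was lower at 25.4 CPM against 122 CPM. The dendritic list, led in UMIs by CADM1, had 2 of 5 genes higher and 3 lower and summed to 1340.3 CPM against 381 CPM. The T and NK list summed to 241 CPM against 143 CPM, with 1 of 7 genes at least 2-fold higher, which was PRKCQ, a protein kinase C that leads it in UMIs, and with CD3G at 0 UMIs. The neutrophil and monocyte list, led by VCAN, summed to 286 CPM against 223 CPM, with S100A9 at 0 UMIs and its 1 considered gene within 2-fold, and the mast cell list, led by KIT, to 149 CPM against 116 CPM, with 1 of 4 genes higher. The part of these lists in the values was not tested.

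The macrophage nuclei were not uniform. The 39 nuclei with a LYVE1 UMI (median 5156 UMIs) were set beside the 175 without (median 3795 UMIs), as a description of nuclei that share 1 library. SLC8A3 had 797 CPM (634 to 989.6) and 678 CPM (537 to 845) in LYVE1-positive nuclei of sublibraries 1 and 2, and 32.2 CPM (18.0 to 53.1) and 60.2 CPM (38.9 to 88.8) in nuclei without a LYVE1 UMI, a pooled ratio of 16.2 (11.4 to 23.5). COLEC12, a scavenger receptor with a collagen-like stalk, had 826 and 764 CPM against 150.1 and 151.6 CPM, a ratio of 5.26 (4.17 to 6.64). For both genes the intervals with and without LYVE1 did not overlap in either sublibrary. Both were named from this split, and the share of all genes with such intervals was not counted. With LYVE1, the SLC8A3 UMIs came from 12 of 19 nuclei in sublibrary 1 and 11 of 20 in sublibrary 2.

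PRKCQ, DAB2, RBPJ and PEPD were also higher with LYVE1 in both sublibraries. RBPJ had 6786 and 6461 CPM in LYVE1-positive nuclei of the sublibraries against 2519 and 2400 CPM. CSF1R had a pooled ratio of 1.10 (0.943 to 1.28), and its intervals with and without LYVE1 overlapped in both sublibraries. MRC1, F13A1 and CD163 are summed with LYVE1 in sum A, so their levels in this split are set in part by the gate and are a description only. MRC1 had 1517 and 909 CPM with LYVE1 against 311 and 361 CPM without.

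A set of other genes went the opposite way. SLC11A1 had 58.3 and 51.5 CPM in LYVE1-positive nuclei of the sublibraries against 307 and 339 CPM, a ratio of 0.170 (0.0867 to 0.301). CD36 had 156 and 532 CPM against 1179 and 1471 CPM, and VSIG4 had 457 and 360.4 CPM against 1033 and 1066 CPM. GPAM, SCD and DGAT2, picked from this split with no tally of a fixed list, were lower too, at ratios of 0.119, 0.179 and 0.114. The adipocyte marker PLIN1 moved with them, at 9.72 and 25.7 CPM with LYVE1 against 114 and 43.3 CPM without. Its intervals overlapped in sublibrary 2. Part of the level of these 4 genes without LYVE1 came from the nucleus described above.

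**Figure D5:**
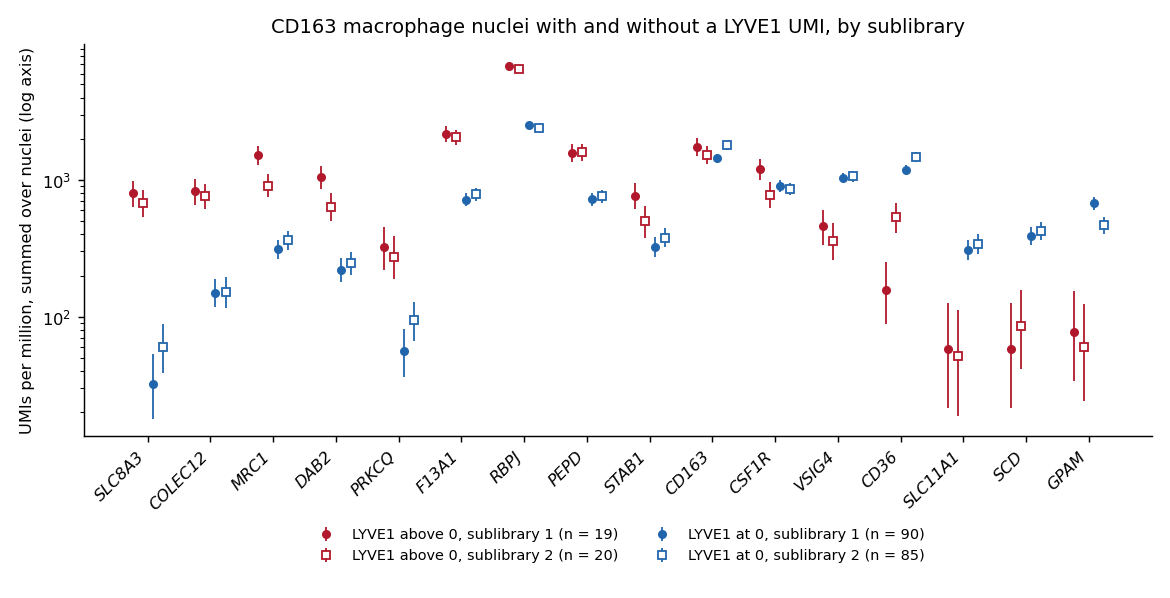
CPM of 16 genes (log axis, with 95% Poisson intervals) in macrophage nuclei with (red) and without (blue) a LYVE1 UMI, in sublibrary 1 (filled circles) and sublibrary 2 (open squares). SLC8A3, COLEC12, MRC1, DAB2, PRKCQ, F13A1, RBPJ and PEPD were higher with LYVE1 in both sublibraries, and VSIG4, CD36, SLC11A1, SCD and GPAM were lower. STAB1 was higher in both, with intervals that overlapped in sublibrary 2. The intervals of CD163 and CSF1R with and without LYVE1 overlapped in both sublibraries. MRC1, F13A1 and CD163 are gate genes, shown as a description.

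A split by CR2 gave another order in part. RBPJ was higher with CR2, as with LYVE1, at 3974 and 3865 CPM in the sublibraries against 1925 and 2380 CPM. CSF1R was higher too, at 1094.5 and 921 CPM against 689 and 717 CPM, with intervals that overlapped in sublibrary 2. DAB2 was higher with CR2 in sublibrary 1 and not in sublibrary 2. The differences below are thus not shown to be particular to the genes named. The 129 nuclei with a CR2 UMI (median 4381 UMIs) had more PLTP than the 85 without (median 3519 UMIs), at 119 and 132 CPM in the sublibraries against 52.6 and 29.1 CPM, a ratio of 3.09 (1.80 to 5.65). CD86 had 338 and 227 CPM against 99.96 and 160.0 CPM, a ratio of 2.18 (1.603 to 3.02), and COLEC12 a ratio of 2.96 (2.17 to 4.11). The intervals overlapped in sublibrary 1 for PLTP (86.6 to 159 with CR2, 25.2 to 96.7 without) and in sublibrary 2 for CD86 (178 to 285 with, 110.1 to 225 without), while those of COLEC12 overlapped in neither. In sublibrary 2, 1 nucleus held 21 of the 43 PLTP UMIs of nuclei with CR2, so that difference rests in part on it. VSIG4 had a ratio of 1.68 (1.46 to 1.95) with CR2, with intervals that overlapped in sublibrary 2 (892 to 1112 CPM with, 660.1 to 906 CPM without), whereas it was lower with LYVE1 in both sublibraries. LPL, lipoprotein lipase, was lower with CR2 at a pooled ratio of 0.414 (0.327 to 0.525), but its sublibraries gave 245 against 258 CPM and 101 against 591 CPM, so the difference came from sublibrary 2.

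The other class that the gate defines by myeloid genes, nuclei chosen by the sum of OLR1, CLEC4D, FCGR1A and SDS, was very small. Only 3 nuclei had a sum C of at least 4 above the other sums, with 38708 UMIs together, and the C genes are not compared because they chose them. Depth was not equal, with a median of 13133 UMIs and 4592 genes per nucleus against 4095.5 UMIs and 2059.5 genes in the CD163 macrophage nuclei. In these 3 nuclei SDS had 13 UMIs, OLR1 8, CLEC4D 4 and FCGR1A none. Of 11010 genes considered, 687 (6.24%) were at least 2-fold higher in the CD163 macrophage nuclei and 2084 (18.9%) at least 2-fold lower, but the median ratio was 0.527 and 3749 genes had no UMI in the OLR1-type nuclei. The 687 became 232 with nuclei of at most 4500 genes and 3% mitochondrial UMIs and 226 in sublibrary 2 alone, each of which leaves 1 of the 3 OLR1-type nuclei. With sum C of at least 2, chosen after the data were seen, there were 11 nuclei with 71384 UMIs, and of the 1376 genes with 10 expected UMIs in both groups 172 (12.5%) were higher and 126 (9.16%) lower.

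CD36, LPL, CD9 and TFEC were named for their low ratio against the 3 nuclei, and STAB1, PEPD, FASN and GPAM for their high ratio. Their values are therefore a description only. The 11 nuclei include the 3, so they are no second measurement. CD36 had 1125 CPM in the CD163 macrophage nuclei, 5115 CPM in the 3 nuclei (198 UMIs) and 4371 CPM in the 11. The ratio against the 3 was 0.220 (0.189 to 0.257). LPL had 269.7 CPM against 1550.1 and 1429 CPM, and CD9 had 214 CPM against 1085 and 1037 CPM. FASN, fatty acid synthase, and GPAM, an acyltransferase of glycerolipid synthesis, had 264 and 474 CPM in the CD163 macrophage nuclei and only 1 and 2 UMIs in the 3 nuclei, where 3 counts make 77.5 CPM, and 42.0 and 70.0 CPM in the 11, on 3 and 5 UMIs, so no direction is read for them. TFEC, a factor related to MITF, had 269 CPM against 2248 CPM in the 3 nuclei, on 87 UMIs. The 1387 CPM in the 11 includes those 87 UMIs and is no separate value. STAB1 had 445 UMIs, or 404 CPM, in the CD163 macrophage nuclei and 1 UMI in either OLR1-type group, so no direction is read for it either. PEPD had 908 CPM against 77.5 CPM in the 3 nuclei, on 3 UMIs and so at the limit, and 294 CPM in the 11. The lysosome list summed to 3756 CPM in the CD163 macrophage nuclei and to 7699 CPM in the 3 nuclei and 7523 CPM in the 11. CENPE, a motor protein of mitotic chromosomes that was named for its low ratio against the 3 nuclei, had 49.0 CPM against 749 CPM in the 3 and 434 CPM in the 11, on 29 and 31 UMIs. The proliferation list summed to 580.3 CPM against 3074 CPM in the 3 and 1765 CPM in the 11, where 119 of the 126 UMIs came from the 3. The part of proliferation genes in the other values was not tested.

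The same gate was applied to the rat libraries with rat symbols, where Lyve1 is not listed by that symbol. It passed 58 of 2708 nuclei of thoracic aortic perivascular fat (2.14%, 1.63 to 2.76), 21 of 2699 of subscapular brown fat (0.778%, 0.482 to 1.19), 23 of 5887 of mesenteric perivascular fat on the 10x platform (0.391%, 0.248 to 0.586), and none of 3028 and 2805 nuclei of mesenteric perivascular and retroperitoneal fat on the Parse platform. Species, sex, depot and depth differ at once, as does the platform for the 10x library, so the values stand side by side only. Median UMIs per called nucleus were 3530.0 in the cow library, 1246 and 1706 in the brown rat depots, and 161, 346 and 213 in the mesenteric 10x, mesenteric Parse and retroperitoneal libraries.

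In the rat nuclei of the aortic and brown depots, Cd163 had 848 and 956 CPM and Mrc1 had 1556 and 1210.5 CPM, where the cow nuclei had 1611 and 506 CPM. Stab1 had 1585 and 1300.1 CPM against 404 CPM in the cow. Cr2 had no UMI in either, below limits of 22.3 and 44.8 CPM, against 611 CPM in the cow. Vsig4 had 1 UMI in the aortic depot and none in the brown depot, against 921 CPM, and Cadm1 had 59.5 and 29.9 CPM against 1264 CPM. The 23 mesenteric nuclei on the 10x platform had 2852 CPM of Cd163 (1879 to 4149), 7921 CPM of Mrc1 and 845 CPM of Stab1, on 27, 75 and 8 UMIs, and no UMI of Cr2, Vsig4 or Cadm1, below a limit of 317 CPM. The gate summed Cd163, Cr2 and Mrc1, so these levels are set in part by the choice of nuclei, and it did not sum Vsig4, Stab1 or Cadm1.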

How the data were processed

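The library was sequenced after Parse Evercode barcoding, and the authors made the matrix with split-pipe on ARS-UCD1.3, as UMI counts per gene and nucleus, deposited without normalization. The authors deposited the gene names and per-nucleus totals beside them (kept as names, with no unit), and the deposited totals equal the sums of the matrix. The 10x Genomics rat counts were made with Cell Ranger. Of 36075 cow genes, 16442 have no symbol. The gene lists, the gate and the tests were chosen with earlier results of these data known.

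From the counts, UMIs were summed over the nuclei of a group and divided by its total (CPM). Ratios carry exact conditional Poisson intervals, levels exact Poisson, shares exact binomial (Clopper-Pearson) and medians order-statistic intervals, at 95%, for counting error only. A gene was considered with at least 10 expected UMIs in the macrophage nuclei, with the 17 gate genes left out, and taken as different at a ratio of at least 2 or at most 0.5. A count of 0 was set to a floor of 3 counts. Endothelial-type, stromal-type, mural-type and lymphocyte-type nuclei had a sum B of at least 4 above sums A and C, and took the lineage with most of its UMIs. Thinning used the seed 20. No doublet caller was run, so any doublets were left in. The sublibraries are technical and no test was made.

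Named genes were the gate genes, genes of 29 lists, the 25 genes with the largest ratio over the other nuclei, the 15 highest and 15 lowest against OLR1-type nuclei (each with at least 20 UMIs and 10% of nuclei in the higher group) and the 10 genes with most UMIs. The splits by LYVE1 and CR2, and the search for single nuclei that hold most of a gene, were chosen after the data were seen. Alternatives changed the gate, the UMI limit, the filters, the fold, the scaling and the sublibrary. The comparison of sums was also run on simulated data, whose outcome is not reported here and supports no value above. Python 3.11.15, numpy 2.4.6, pandas 2.3.3, scipy 1.17.1 and matplotlib 3.10.9 were used. Sequences of cow genes were not used here. Some genes of the lists are not reported here.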

Additional observations from a re-analysis of the deposited data

Results flagged for a closer look

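Nuclei above 15000 UMIs stand outside the groups compared, and 40 of these 233 nuclei (17.2%, 12.6 to 22.6) met every other condition of the gate. They had a median of 22784 UMIs and of 43.5 UMIs of sum A. CD163 stood at 816 CPM and CSF1R at 422 CPM in them, below the 1611 and 903 CPM of the 214 macrophage nuclei, while PLIN1, the adipocyte perilipin, stood at 249.7 against 68.1 CPM and COL3A1, a fibrillar collagen, at 993 against 511 CPM. Whether they hold more than 1 nucleus was not tested.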

How the results depend on the processing

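The share of nuclei in the gate, 10.4%, became 8.87% with sum A of at least 6, 8.91% with A of at least 2 times B plus C, and 8.62% with the gate set on nuclei thinned to 1000 UMIs with sum A of at least 2. The number of nuclei was 109 in sublibrary 1 alone and 105 in sublibrary 2 alone, by construction. Against the other nuclei, 1727 genes were higher and 1938 lower with 3 expected UMIs, 557 and 805 with 30, and 431 and 528 at 3-fold. Against OLR1-type nuclei, 1015 were lower with 30 expected UMIs, 259 were higher and 774 lower at 3-fold, 232 higher under 2 of the study's filters (at most 4500 genes and 3% mitochondrial UMIs) and 226 in sublibrary 2 alone. With sum C of at least 2, an added alternative, 1125 were higher, and 172 higher and 126 lower when 10 UMIs were expected in both groups. The limit of 10000 UMIs left no OLR1-type nucleus, so it gave no value there. Of 1932 ratios, 138 genes under 14 alternatives, 261 moved beyond their interval, most often under the thinned gate (63 genes) and with other nuclei lacking sum A UMIs (60), and 1 reversed: SPP1, osteopontin, at 2.76, was 0.932 with the thinned gate and 1.19 with at least 2 genes of sum A detected, and the cause was not tested. No paired analysis was possible because each condition has 1 library. Leaving out the nucleus richest in KCNB2, another added alternative, gave 1038 higher and 1252 lower. The design has no replicate, so depth limits only the counting error, and genes below 2.72 CPM could not be told from 0.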
